A study of Homo sapiens with 3 samples.

Results

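Entry into mitosis and the separation of chromosomes depend on a set of proteins whose transcripts are made late in the cell cycle. These results describe 54 such genes, chosen by name from knowledge of the cell cycle, without a threshold on any value: mitotic kinases, cyclins, kinesins, kinetochore and checkpoint proteins, spindle and cytokinesis factors, and a few chromatin and transcription genes that mark dividing cells. The choice was made with earlier results of these data known. All 54 are among the 58735 genes listed in the data, and all 54 are among the 13984 genes that averaged 1 CPM or more (counts scaled to a common library size).

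The cells were A549, a human line established from a lung adenocarcinoma, and RNA was sequenced in 3 conditions with 1 library each. The control (Control) carried the lentiviral pLKO.1 vector in the study's methods and a control shRNA in its legends, and which of these the sequenced library held is not known. DDX24-sh1 and DDX24-sh2 each carried an shRNA against DDX24, an RNA helicase of the DEAD-box family. All were stable lines selected and kept in puromycin, were described as grown at 37°C and 5% CO2 in F12K medium with 10% serum, and were sequenced from 4 ug of total RNA. The comparison asks how transcripts of the mitotic machinery stood in cells with less DDX24, a depletion that the study followed for its effect on proliferation.

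DDX24 had 2010 counts in Control, 637 in DDX24-sh1 and 765 in DDX24-sh2, so that 29.6% and 36.0% of the control level remained after scaling. Totals were 17218884, 18337471 and 17847190 counts in Control, DDX24-sh1 and DDX24-sh2, and mitochondrial genes held 4.36% to 7.04% of them, most in DDX24-sh2. All 10 epithelial and A549 markers were detected in every library, and CDKN2A, which is deleted in A549, was listed at 0 in all 3. Markers of other cell types were low, with summed levels of 11.1 to 16.2 CPM for 6 fibroblast, 5.15 to 9.02 CPM for 6 leukocyte and 0.665 to 1.23 CPM for 5 endothelial genes. The deposited counts and FPKM (counts per gene length and library size) disagree on which shRNA library is which. The FPKM labelled DDX24-sh1 fits the counts labelled DDX24-sh2 for 100% of genes with at least 50 counts, within 1% of a single constant, and the reverse holds too, whereas with the labels as given it is 5.23% and 5.17% of genes. Below, the names follow the count labels, and which hairpin is which is not known. With 1 library per condition no test between conditions was possible and no difference has a replicate check. Intervals printed in parentheses after log2 ratios are exact 95% intervals from the 2 counts. They cover counting error only, and differences between cultures were not measured. Counts in a row are in the order Control, DDX24-sh1, DDX24-sh2, and paired ratios to Control are for DDX24-sh1 first.

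The regulators behind these genes work in sequence. CDK1 bound to A- and B-type cyclins drives cells into mitosis, Polo-like and Aurora kinases build the spindle, the checkpoint proteins hold the anaphase-promoting complex inactive until every kinetochore is attached, and kinesins and cytokinesis factors move chromosomes and divide the cell. Most late cell cycle genes are silenced in resting cells and in G1 through a short promoter element, the cell cycle genes homology region (CHR), to which the DREAM and MuvB complexes bind, and many also carry CCAAT boxes, to which NF-Y binds.

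The promoters show what these genes share apart from their names. A 300-base promoter from RefSeq on GRCh38.p14, from 250 bases before to 50 after the annotated start, was at hand for 46 of the 54 genes, all except AURKA, BIRC5, BUB3, FOXM1, PBK, TPX2, TTK and UBE2C. Where a gene had several promoter entries, the entry with the lowest coordinate was kept. On the minus strand this is the most downstream start, and motifs at other starts were not searched. The CHR in the form TTTGAA, searched on both strands, was found in 34 of the 46 (73.9%), against 15.6% of 27305 promoters of all genes and 1 of 41 promoters (2.44%) of DNA replication genes, which are made earlier in the cycle. CCAAT, also searched on both strands, was found in 36 of the 46 (78.3%), against 35.6% of all promoters, and 28 of the 46 (60.9%) held both motifs, against 6.15% of all. In 28 of the 46 a CHR began within 50 bases of the start site, compared with 4.85% of all promoters. A match is a description of letters, not evidence of a bound site, and these motifs were chosen after the expression values were known.

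**Figure D1:**
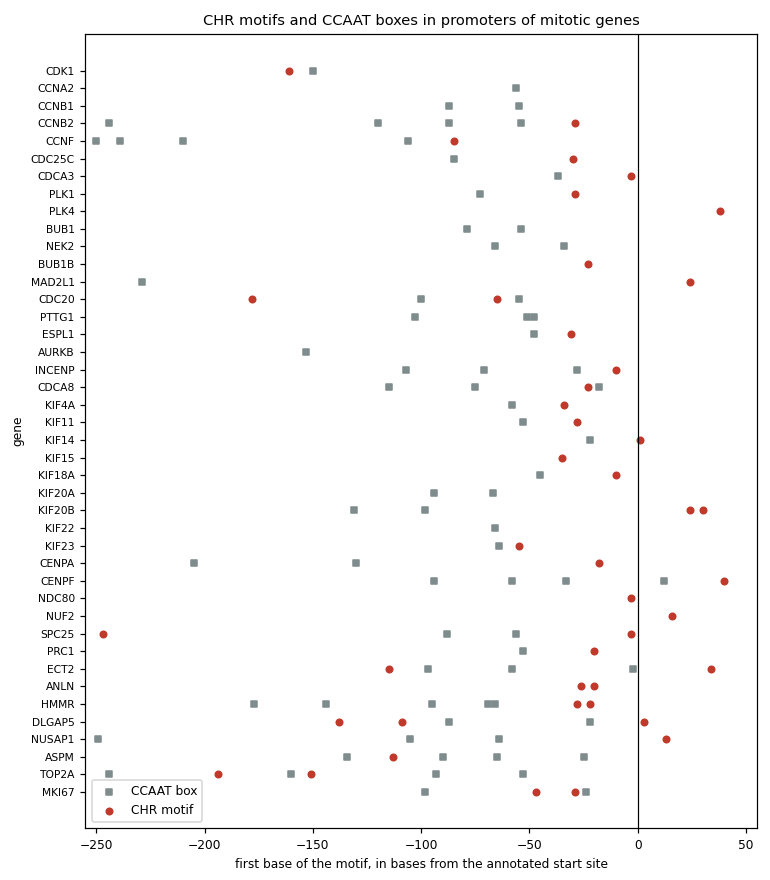
Position of each CHR motif (red circles) and CCAAT box (grey squares) in the promoters of the mitotic genes that hold at least one of them, with 1 row per gene and the distance in bases from the annotated start site on the horizontal axis. Most CHR motifs lie close to the start site, with the CCAAT boxes upstream of them.

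The last 170 bases of 7 of these promoters are printed here on GRCh38.p14, from 120 bases before the start to 50 after it, because the genes span the range of values described below. Capitals mark TTTGAA and CCAAT on either strand, so that TTCAAA and ATTGG are the same motifs on the other strand. CCNB2 and NUF2 were lower than Control in both shRNA libraries, and PLK1 and CENPF carry the motifs in different arrangements. HMMR and KIF20B each hold a tandem CHR, and CENPE holds neither TTTGAA nor CCAAT in its whole promoter. The RefSeq start lies inside the GENCODE gene for CCNB2, PLK1, HMMR, NUF2 and CENPE, farthest inside for NUF2.
CCNB2, chr15:59105026-59105195, plus strand: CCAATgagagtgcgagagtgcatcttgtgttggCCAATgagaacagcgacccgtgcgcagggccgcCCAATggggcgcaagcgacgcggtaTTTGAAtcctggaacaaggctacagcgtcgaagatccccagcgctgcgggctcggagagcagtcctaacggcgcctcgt
PLK1, chr16:23678769-23678938, plus strand: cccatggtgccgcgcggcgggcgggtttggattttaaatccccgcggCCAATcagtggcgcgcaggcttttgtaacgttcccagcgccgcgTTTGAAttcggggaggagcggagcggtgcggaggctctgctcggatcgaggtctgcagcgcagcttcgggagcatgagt
HMMR, chr5:163460512-163460681, plus strand: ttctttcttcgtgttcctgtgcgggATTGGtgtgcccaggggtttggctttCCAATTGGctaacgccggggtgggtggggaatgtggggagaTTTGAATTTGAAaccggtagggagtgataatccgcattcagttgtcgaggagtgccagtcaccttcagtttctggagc
NUF2, chr1:163321834-163322003, plus strand: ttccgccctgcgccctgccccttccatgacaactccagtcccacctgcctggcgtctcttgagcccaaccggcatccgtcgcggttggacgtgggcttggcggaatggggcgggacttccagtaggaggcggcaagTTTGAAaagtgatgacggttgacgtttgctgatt
CENPF, chr1:214603075-214603244, plus strand: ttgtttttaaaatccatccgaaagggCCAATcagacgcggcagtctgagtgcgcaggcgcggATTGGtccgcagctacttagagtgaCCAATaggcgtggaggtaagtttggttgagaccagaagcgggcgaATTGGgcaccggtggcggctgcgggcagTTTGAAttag
KIF20B, chr10:89701470-89701639, plus strand: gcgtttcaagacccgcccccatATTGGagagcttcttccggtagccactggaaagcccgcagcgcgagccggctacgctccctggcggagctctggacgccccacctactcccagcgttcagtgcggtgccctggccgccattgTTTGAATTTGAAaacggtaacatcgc
CENPE, chr4:103198294-103198463, minus strand: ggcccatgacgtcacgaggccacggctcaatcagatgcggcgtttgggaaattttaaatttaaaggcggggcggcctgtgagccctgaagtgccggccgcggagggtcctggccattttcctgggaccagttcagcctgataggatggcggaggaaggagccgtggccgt

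In the DDX24-sh1 library, mitotic transcripts were lower than in Control across every role, whereas in DDX24-sh2 they stood close to Control. The 54 genes together held 82351, 63159 and 82909 counts in the order above. This is 0.478% of all counts in Control (95% Wilson interval 0.475% to 0.482%), 0.344% in DDX24-sh1 (0.342% to 0.347%) and 0.465% in DDX24-sh2 (0.461% to 0.468%). The share in DDX24-sh1 thus stood apart from the other 2 libraries, which lay near each other. In a bulk library, fewer cells in the late cell cycle and less of these transcripts per cell cannot be told apart.

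Against Control, DDX24-sh1 had a median log2 ratio of -0.46 over the 54 genes, beside -0.02 over all 13984 genes, and DDX24-sh2 one of 0.04, beside -0.03. In DDX24-sh1, 54 of 54 ratios were below 0, or 53 with INCENP above 0 under DESeq2 size factors, total counts or FPKM, where 52.6% of all genes were below 0 and 47.4% above. The interval lay wholly below 0 for 48 genes (29.5% of all genes) and wholly above 0 for 0 (23.6%). Genes with more counts have narrower intervals, and the shares of all genes, here and below, are not matched for level. The median level in Control was 14.2 FPKM for the 54 genes and 5.04 FPKM for all genes. At least 1.5-fold lower were 10 genes, 18.5% of the 54 beside 8.25% of all genes, namely CDK1, CCNB2, NEK2, KIF2C, KIF14, KIF15, CENPA, CENPF, NUF2 and TOP2A, and 0 were 1.5-fold higher, beside 7.59%.

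In DDX24-sh2 the ratios to Control fell on both sides. They were above 0 for 29 genes (47.0% of all genes) and below 0 for 25 (53.0%), and with scaling by total counts alone 34 were above 0. The interval lay wholly above 0 for 19 genes (23.6% of all genes) and wholly below 0 for 16 (30.8%). CENPE and KIF20B were the 2 genes at least 1.5-fold higher (8.60% of all genes) and CENPA and NUF2 the 2 that were 1.5-fold lower (9.51%). These counts at 1.5-fold, 3.70% of the 54 genes in each direction, are below the shares of all genes. The sum over the 54 genes leaned the other way from the median, with a log2 ratio of -0.07 (-0.08 to -0.06). CDC25B and TOP2A, the members with the most counts in Control, were lower in DDX24-sh2 than in Control.

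**Figure D2:**
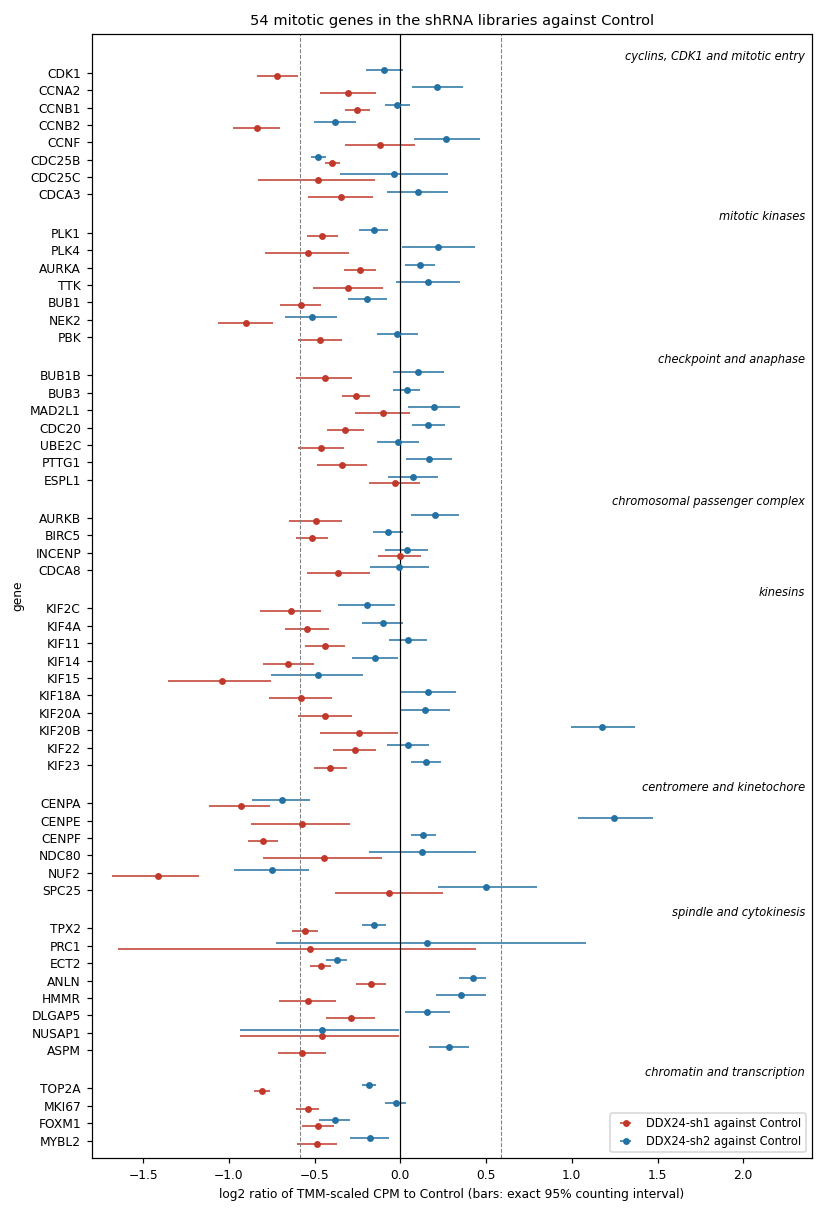
Log2 ratio of TMM-scaled CPM to Control (horizontal axis) for each of the 54 genes, grouped by role, in DDX24-sh1 (red) and DDX24-sh2 (blue), with exact 95% counting intervals as bars and dashed lines at 1.5-fold. The red points all lie at or left of 0, while the blue points scatter around 0 with CENPE and KIF20B far to the right.

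The comparison between the hairpins uses Control only through the scaling and the 1 CPM filter, which were set on all 3 libraries. DDX24-sh2 was higher than DDX24-sh1 for 52 of the 54 genes (48.2% of all genes) and lower for 2 (51.8%), CDC25B and NUSAP1, the second of which was above 0 with scaling by total counts. The median of these ratios was 0.45, beside -0.01 over all genes. The interval lay wholly above 0 for 49 genes (21.0% of all genes) and wholly below 0 only for CDC25B (23.8%). At least 1.5-fold higher in DDX24-sh2 were 13 genes, 24.1% beside 5.33% of all genes, and 0 were 1.5-fold lower, beside 4.84%. The 13 were CDK1, PLK4, AURKB, KIF18A, KIF20B, CENPE, CENPF, NUF2, PRC1, ANLN, HMMR, ASPM and TOP2A, of which PRC1 rests on 15 and 25 counts and has an interval of -0.22 to 1.78 that holds 0. The size of this difference was measured in 1 library of each hairpin, without a replicate. Because the labels of these libraries are exchanged between the count and FPKM values, which hairpin carries the higher level is not known.

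**Figure D3:**
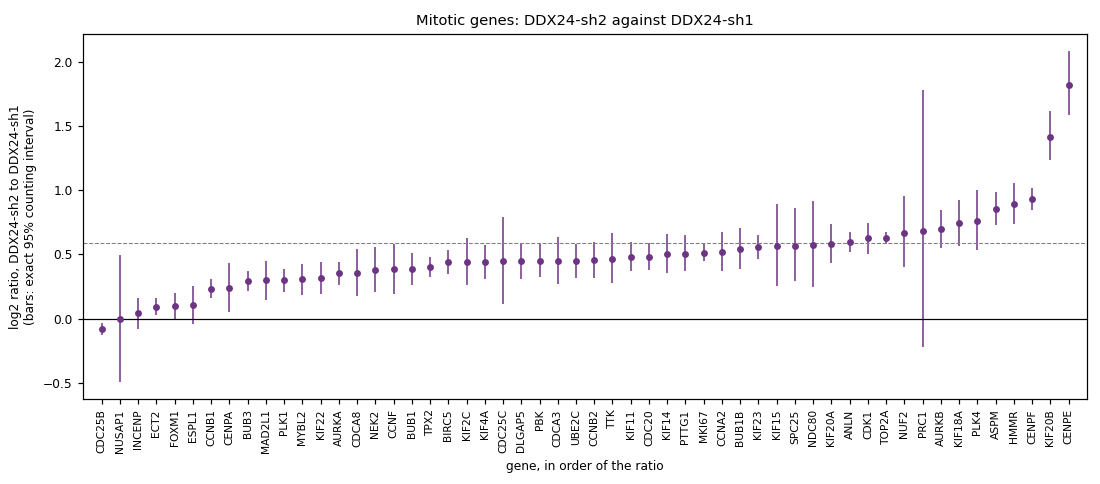
Log2 ratio between the shRNA libraries, DDX24-sh2 over DDX24-sh1 (vertical axis), for the 54 genes in order of the ratio, with exact 95% counting intervals and a dashed line at 1.5-fold. The points run from -0.08 for CDC25B to 1.82 for CENPE, and nearly all lie above 0.

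Among the 8 genes of mitotic entry, DDX24-sh1 had a median log2 ratio of -0.37 and DDX24-sh2 one of -0.03. CDK1, the kinase that starts mitosis (chromosome 10, 60778331 to 60794852), had 1443 counts in Control, 940 in DDX24-sh1 and 1431 in DDX24-sh2. It was lower in DDX24-sh1, at -0.72 (-0.84 to -0.60) on the log2 scale, and nearer Control in DDX24-sh2, at -0.09 (-0.20 to 0.01). Its partners did not move by the same amount. CCNB1, the main mitotic cyclin, had 3011, 2713 and 3143 counts and log2 ratios of -0.25 and -0.02, the second above 0 with total counts alone. CCNB2, the second B-type cyclin, had 1192, 714 and 968 counts, with ratios of -0.84 (-0.98 to -0.70) and -0.38 (-0.50 to -0.26). The 2 B-type cyclins thus differed in both libraries by more than their counting intervals. CCNA2, the cyclin of S and G2 phase, had 678, 588 and 833 counts and was lower in DDX24-sh1 (-0.30) and higher in DDX24-sh2 (0.22).

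The phosphatases that switch CDK1 on were also unlike each other. CDC25B had the highest level per length of the 54 genes in Control, with 124 FPKM, and 9160, 7456 and 6956 counts. It was lower in both shRNA libraries, with log2 ratios of -0.40 and -0.48, and is the only member whose interval placed DDX24-sh2 below DDX24-sh1 (-0.13 to -0.03). CDC25C was at 2.95 FPKM in Control with 169, 129 and 174 counts, and its ratio in DDX24-sh2 was -0.04 (-0.35 to 0.28). CCNF, an F-box protein, stood at -0.12 (-0.32 to 0.09) in the DDX24-sh1 library and at 0.27 in DDX24-sh2. CDCA3, a factor of mitotic entry, stood at -0.35 in DDX24-sh1 and at 0.10 (-0.07 to 0.28) in DDX24-sh2. Both of the intervals printed for CCNF and CDCA3 hold 0.

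All 7 mitotic kinases outside the chromosomal passenger complex had intervals wholly below 0 in DDX24-sh1, beside 29.5% of all genes. PLK1, which acts at centrosomes, kinetochores and the midbody, had 2349 counts in Control, 1837 in DDX24-sh1 and 2231 in DDX24-sh2, with log2 ratios of -0.45 and -0.15. AURKA, the spindle pole kinase, had 1974, 1794 and 2262 counts, and its ratio of -0.24 in DDX24-sh1 was the one nearest 0 of the 7. NEK2, a centrosome kinase, was lower in both libraries, with 851, 488 and 628 counts and ratios of -0.90 and -0.52. BUB1 (1333, 955 and 1233 counts) had ratios of -0.58 and -0.19, and is the checkpoint kinase that marks the inner centromere. PLK4, the kinase of centriole duplication, had 329, 242 and 406 counts, and DDX24-sh2 stood 0.76 above DDX24-sh1 on the log2 scale, the largest difference between hairpins in this group. TTK, the kinase at the head of the checkpoint, had 436, 378 and 516 counts. PBK, a kinase of the MAPKK family, had 1125, 872 and 1175.

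The 7 genes of checkpoint control and anaphase had a median of -0.32 in DDX24-sh1, the nearest to 0 of the role groups. BUB1B, MAD2L1 and BUB3 belong to the complex that holds CDC20 inactive. BUB1B had 695, 548 and 790 counts, a log2 ratio of -0.44 in DDX24-sh1. BUB3 had 2583, 2317 and 2802 counts, a ratio of -0.26, and MAD2L1 had 635, 634 and 769, a ratio of -0.10 whose interval (-0.26 to 0.06) held 0. CDC20, their target and the activator of the anaphase-promoting complex, had 1544, 1325 and 1829 counts, with ratios of -0.32 and 0.16. UBE2C, the ubiquitin-conjugating enzyme of that complex, had 1039, 808 and 1089 counts and ratios of -0.46 and -0.01, the second above 0 with total counts alone. PTTG1 (securin) had 848, 718 and 1007 counts, with ratios of -0.34 and 0.17. ESPL1 (separase), the protease it inhibits, had 727, 762 and 809 counts, with ratios of -0.03 and 0.07 that held 0 in both intervals.

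The chromosomal passenger complex corrects faulty attachments, and its 4 members did not share 1 ratio. AURKB, the kinase, had 786, 598 and 956 counts, with log2 ratios of -0.49 (-0.65 to -0.34) and 0.20 (0.06 to 0.34). BIRC5 (survivin) had 2140, 1606 and 2150 counts, with ratios of -0.51 and -0.07. CDCA8 (borealin) had 541, 451 and 570, with ratios of -0.36 and -0.01, the second above 0 under the other scalings. INCENP, the scaffold, had 1020, 1090 and 1106 counts and the ratios closest to 0 among the 54 genes in DDX24-sh1, at -0.0041 (-0.13 to 0.12), above 0 under the other scalings, and 0.04 in DDX24-sh2. The interval of INCENP in DDX24-sh1 did not overlap those of the other 3 subunits.

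All 10 kinesins had intervals wholly below 0 in DDX24-sh1, beside 29.5% of all genes, with a median of -0.49. The lowest was KIF15, a motor that keeps spindle poles apart, with 271, 140 and 205 counts. Its log2 ratios were -1.04 (-1.36 to -0.75) and -0.48 (-0.75 to -0.22). KIF11, the main motor of pole separation, had 1326, 1048 and 1446 counts and ratios of -0.44 and 0.04. KIF2C, which takes microtubules apart at the centromere, had 631, 434 and 582, with -0.64 and -0.20. Of the motors of the central spindle, KIF20A had 751, 594 and 878 counts and KIF23 had 1989, 1606 and 2335, with DDX24-sh1 at -0.44 and -0.41 and DDX24-sh2 at 0.14 and 0.15. KIF4A, a chromosome-bound motor that also works there, had 1131, 831 and 1114 counts and ratios of -0.54 and -0.10 (-0.22 to 0.02), the second with an interval below that of KIF23 (0.06 to 0.24). KIF20B, a relative of KIF20A that also works in cytokinesis (chromosome 10, 89701610 to 89774939), had a different pattern. It had 344 counts in Control, 312 in DDX24-sh1 and 825 in DDX24-sh2, a ratio of 1.18 to Control in DDX24-sh2 with an upper bound of 1.37, apart from the other 9 kinesins, which lay between -0.48 and 0.16. In DDX24-sh1 the remaining KIF14, KIF18A and KIF22 ranged from -0.65 for KIF14 to -0.27 for KIF22.

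The 6 centromere and kinetochore genes held both the lowest and the highest ratio to Control of all 54 in DDX24-sh2. CENPA, the histone variant that marks centromeres, had 728 counts in Control, 408 in DDX24-sh1 and 476 in DDX24-sh2. It was lower in both, with log2 ratios of -0.93 and -0.69. On the same strand, 6.96% of the exonic bases of CENPA are shared with SLC35F6 (3029, 2187 and 1998 counts). How reads on shared exons were counted is not stated, so the counts of CENPA are uncertain to that extent. CENPF, which coats the kinetochore, had 2856, 1758 and 3312 counts, with -0.80 (-0.89 to -0.71) in DDX24-sh1 and 0.13 in DDX24-sh2. CENPE, the kinesin that carries chromosomes to the spindle equator (chromosome 4, 103105806 to 103198409), had 243, 174 and 612 counts. DDX24-sh1 stood at -0.58 (-0.87 to -0.29) and DDX24-sh2 at 1.245 (1.04 to 1.47), the highest of the 54, and the ratio between the hairpins was 1.82 (1.59 to 2.08). CENPE and KIF20B were the only members over 1 on the log2 scale in DDX24-sh2 against Control.

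Of the NDC80 complex, which grips the microtubule end, 3 subunits are among the 54 genes. NUF2 stood apart from the other 2 of these, whose intervals overlapped in each library. A subunit outside the 54 genes was not compared. NUF2 (chromosome 1, 163266576 to 163355764) had 449 counts in Control, 179 in DDX24-sh1 and 282 in DDX24-sh2, with log2 ratios of -1.42 (-1.68 to -1.17) and -0.75 (-0.97 to -0.53), the lowest of the 54 genes in each library. Its direct partner NDC80 had 161, 126 and 186 counts, with -0.45 (-0.80 to -0.11) and 0.13 (-0.18 to 0.44). SPC25 had 171, 175 and 257 counts, with -0.07 (-0.38 to 0.25) and 0.50 (0.22 to 0.79). The intervals of NUF2 overlapped those of NDC80 or SPC25 in neither library. Stretches of SPC25 match transcripts of other genes at over 95% identity, and its counts are uncertain to that extent.

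Among the 8 spindle and cytokinesis genes, TPX2, which activates AURKA on the spindle, had 3435 counts in Control, 2507 in DDX24-sh1 and 3267 in DDX24-sh2, with log2 ratios of -0.55 and -0.15. ECT2, the exchange factor that switches on RhoA at the division furrow, had 4900, 3803 and 4003 counts and was lower in both, with -0.47 and -0.37. ANLN, an actin-binding scaffold of the furrow, differed from ECT2, with 2264, 2155 and 3210 counts and ratios of -0.17 (-0.26 to -0.09) and 0.42 (0.34 to 0.50). HMMR (688, 507 and 930 counts) and ASPM (1023, 737 and 1317 counts), both found at spindle poles, were lower in DDX24-sh1 (-0.54 and -0.57) and higher in DDX24-sh2 (0.35 and 0.28). DLGAP5, a spindle microtubule binder, had 864, 758 and 1019 counts.

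PRC1 and NUSAP1, which bundle and bind spindle microtubules, had the fewest counts of the 54 genes. PRC1 had 21, 15 and 25 counts and NUSAP1 had 93, 72 and 71. Their intervals were wide, -1.65 to 0.44 for PRC1 and -0.93 to -0.01 for NUSAP1 in DDX24-sh1. In GENCODE 29, 58.4% of the exonic bases of PRC1 and 62.2% of those of NUSAP1 are shared with exons of other genes, chiefly AC068831.7 (65, 46 and 75 counts) and AC087721.2 (0 counts in each library) on the same strand. The next highest share among the 54 genes is 15.9%, for FOXM1, and 34 genes share none. How reads on shared exons were counted is not stated, so the levels of these 2 genes are uncertain.

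The 4 genes that mark dividing cells or drive late transcription had intervals wholly below 0 in DDX24-sh1, and 3 of them in DDX24-sh2. The shares of all genes were 29.5% and 30.8%. TOP2A, which untangles sister chromosomes (chromosome 17, 40388516 to 40417950), had 10149, 6209 and 9466 counts, the most of any member, with log2 ratios of -0.81 (-0.85 to -0.76) and -0.18 (-0.22 to -0.14). MKI67, the antigen used to score proliferation in tissue, had 4290, 3160 and 4454 counts, with -0.54 in DDX24-sh1 and -0.03 (-0.09 to 0.03) in DDX24-sh2, the latter above 0 with total counts alone. FOXM1, the transcription factor of G2 and M phase genes, had 2164, 1661 and 1754 counts. Its ratios of -0.48 (-0.57 to -0.39) and -0.38 (-0.48 to -0.29) lay close together, and the ratio between the hairpins was 0.10, with a lower bound of 8e-05 and an upper bound of 0.20. MYBL2, which works with the MuvB complex, had 1348, 1032 and 1259 counts, with -0.48 and -0.18.

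Compared per length, levels in Control ran from 124 FPKM for CDC25B, 91.9 for TOP2A and 68.6 for CCNB1 down to 2.93 for KIF20B, 2.61 for NDC80, 1.499 for CENPE and, beside the uncertain NUSAP1 (1.88), 0.22 for PRC1. The median of the 54 genes was 14.2 FPKM and that of the 13984 genes 5.04. CENPE and KIF20B, the 2 genes at least 1.5-fold higher in DDX24-sh2 than in Control, were among the 5 lowest in Control.

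Other genes of the same processes were taken from lists written from textbook roles. In DDX24-sh1 the median log2 ratio to Control was -0.42 over 19 condensin and cohesin genes, -0.34 over 32 further centromere and kinetochore genes and -0.30 over 20 further spindle and cytokinesis genes. At least 1.5-fold lower were 5 of the 19 (26.3%), 7 of the 32 (21.9%) and 4 of the 20 (20%), beside 18.5% of the 54 genes and 8.25% of all genes, and 0 of any of them were 1.5-fold higher, beside 7.59% of all genes. Within them, SGO1, the protector of centromeric cohesin, had 293, 128 and 217 counts and was at -1.28 (-1.61 to -0.99), SKA1 was at -0.90 (-1.17 to -0.64) and DEPDC1 at -0.79 (-0.96 to -0.63). The 17 genes of the anaphase-promoting complex and its regulators, most of them present throughout the cycle, had a median of -0.08, with FBXO5, an inhibitor of the complex, lowest at -0.66. In DDX24-sh2 the 4 medians were -0.14, -0.03, 0.07 and 0.11.

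Genes of the E2F and DREAM complexes, of which 17 of 18 were measured above 1 CPM, had a median of -0.18 in the DDX24-sh1 library, that of DDX24-sh2 being -0.10, and 0 of the 17 were 1.5-fold lower in either, beside 8.25% and 9.51% of all genes. E2F7, a repressor of the E2F family with 165, 144 and 270 counts, was at 0.62 (0.35 to 0.92) in DDX24-sh2 and was the 1 gene of the 17 that was 1.5-fold higher there, beside 8.60% of all genes. The 48 DNA replication genes had medians of -0.18 and 0.04, with 1 gene, CDT1 (744, 420 and 556 counts), at least 1.5-fold lower in DDX24-sh1 and 1, POLE2 (119, 195 and 190 counts), 1.5-fold higher, beside 8.25% and 7.59% of all genes. In DDX24-sh2, POLE2 and RRM2 were 1.5-fold higher than Control, at 0.59 and 0.89. They are 4.17% of the 48, beside 8.60% of all genes, and 0 of the 48 were 1.5-fold lower, beside 9.51%. Between the hairpins, DDX24-sh2 was above DDX24-sh1 for 43 of the 48, beside 48.2% of all genes, with a median of 0.27 beside 0.45 for the mitotic genes, and RRM2, a subunit of ribonucleotide reductase with 715, 914 and 1403 counts, was highest at 0.64.

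The ratios were also compared between promoters with and without TTTGAA. Other forms of the CHR and other start sites were not searched, so genes without TTTGAA may still hold a CHR, and the split cannot show whether a CHR matters. In DDX24-sh1 the median was -0.46 for the 34 genes with TTTGAA in the promoters examined and -0.46 for the 12 without it. In DDX24-sh2 the medians were 0.09 and 0.01. Between the hairpins the medians were 0.51 and 0.41, and the 12 without it held both the lowest ratio (-0.08, CDC25B) and the highest (1.82, CENPE).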

How the data were processed

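RNA of 3 A549 libraries, Control, DDX24-sh1 and DDX24-sh2, was analysed from the gene values that the authors deposited. The deposited counts are whole numbers per gene without normalization. The deposited FPKM are counts divided by gene length and library size. Submitters' processing notes list TopHat2 2.0.9, Bowtie2 2.0.6, Cufflinks 2.1.1 and Cuffdiff 2.1.1 without roles, and the counter and its treatment of strand and multiply mapped reads are not given in the sources used here. GENCODE 29 on GRCh38 matched the identifier and position of each of the 58735 genes.

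Library sizes were scaled by TMM (edgeR 4.0.16, R 4.3.3), and log2 ratios used log2 CPM (prior count 2), keeping genes that averaged 1 CPM or more. Intervals are exact 95% conditional binomial (Clopper-Pearson) intervals. No molecular identifiers are described, so PCR duplicates may count as separate reads. No model was fitted, and the steps were tested on simulated data. At these totals the interval spanned 0.046 on either side for TOP2A and about 1.04 for PRC1. Alternatives were DESeq2 1.42.0 size factors, total counts, a prior count of 0.5, log2(FPKM + 0.1), filters of 0 and 10 CPM, and lower and higher fold thresholds.

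The members and lists were chosen with earlier results of these data known, and promoter motifs and exon overlaps were examined after the ratios were seen. Any member could be named, with counts for a fixed set that defines each role and the extremes. Counts of CDCA8, DLGAP5, HMMR, NUSAP1, SPC25 and others were added after values were seen. In the other lists only the lowest and highest genes could be named. Copies were searched with blastn at 95% identity over at least 200 bases.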

Additional observations from a re-analysis of the deposited data

How the results depend on the processing

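None of the 162 member ratios left its counting interval or changed sign when called, under DESeq2 size factors, total counts, a prior count of 0.5 or FPKM matched to their counts. The DESeq2, prior count and filter alternatives moved no median or count of the 54 genes beyond its limit. DESeq2 size factors moved no sum, and sums were not computed for the prior count and filter alternatives. The sum moved to -0.042 in DDX24-sh2 and to 0.43 between the hairpins with total counts, and to -0.45 in DDX24-sh1 and 0.38 between the hairpins with matched FPKM.

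With the FPKM labels as given the hairpins change places by construction. The medians against Control became 0.0493 and, for DDX24-sh2, -0.444, the sums -0.0686 and -0.451, the numbers 1.5-fold higher 2 and 0 and 1.5-fold lower 2 and 10. Between the hairpins the median was -0.448, the sum -0.383, with 0 genes higher and 12 lower. At 2-fold the counts were 2 lower in DDX24-sh1, 0 lower in DDX24-sh2 and 2 higher between the hairpins. Among all 13984 genes the same counts were 318, 430 and 182. At the lower threshold the counts were 39 lower in DDX24-sh1, 5 higher and 9 lower in DDX24-sh2 and 41 higher between the hairpins. No share of all genes is given at the lower threshold or for the FPKM with labels as given. The counts under these settings therefore cannot be set against a background.

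No paired analysis was possible because each condition has 1 library, so the state of the single control culture and an effect of either shRNA cannot be told apart. At 21 counts PRC1 allows no statement on its direction.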
